A study of Mus musculus with 38 samples.

Results

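A set of 10 genes of fatty acid synthesis, elongation and desaturation was followed in oligodendrocyte precursor cells (OPCs) across 8 groups defined by Bmal1 genotype and time of day. They were chosen by symbol from the 54532 genes counted: Acly, Acaca, Fasn, Elovl6, Elovl5, Elovl1, Scd1, Scd2, Fads1 and Fads2. All 10 were among the 22798 genes that passed the filter on low counts, and their counts per library lay between 859 and 84059. OPCs are the dividing glial cells that mature into myelinating oligodendrocytes. BMAL1, encoded by Arntl, is a transcription factor of the circadian clock.

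Every mouse carried floxed Bmal1 alleles (Bmal1fl/fl). The groups called WT lacked the Cre recombinase transgene (NG2:Cre-;Bmal1fl/fl), and the groups called KO carried it (NG2:Cre+;Bmal1fl/fl). Cre was driven by the promoter of NG2, the product of Cspg4, and recombination removes the DNA-binding domain of BMAL1. The submitters describe the result as a transcriptional hypomorph. No group carried Cre with an intact Bmal1, so effects of the transgene and of the Bmal1 allele cannot be told apart. Forebrain OPCs of P6-P7 mice were isolated by immunopanning, with 2 plates that bind microglia and endothelial cells and a plate coated with antibody against PDGFRα, and each library pooled 2 mice of both sexes. Cells were taken at zeitgeber time (ZT) 0, lights on, and at ZT6, ZT12, lights off, and ZT18. The WT groups held 4, 5, 6 and 4 libraries in that order and the KO groups 4, 7, 4 and 4, giving 19 libraries of each genotype.

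Fatty acid synthesis starts in the cytosol, where ATP citrate lyase (Acly) makes acetyl-CoA, acetyl-CoA carboxylase (Acaca) makes malonyl-CoA from it, and fatty acid synthase (Fasn) joins these units into palmitate. Elongases of the ELOVL family lengthen the chains, stearoyl-CoA desaturases (Scd1, Scd2) turn saturated chains into monounsaturated ones such as oleate, and FADS desaturases insert further double bonds into polyunsaturated chains. Many of these genes are classical targets of the SREBP transcription factors, and oligodendrocyte lineage cells need large amounts of lipid to build myelin.

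The library totals ran from 19376094 to 39007229 counts. The 10 genes together held between 0.296% and 0.460% of the counts of a library. All 15 OPC markers examined were detected, and their mean level on the log2 CPM scale was between 9.41 and 9.65 in the 8 groups. CPM is the number of counts per 1000000 of the TMM-scaled library size. All 17 markers of microglia and macrophages were also detected, none at 0, with group means of 8.13 to 9.02 on the same scale, so RNA of these cells was present in the panned preparations. In such bulk samples, a change in the number of cells of a type and a change in RNA per cell cannot be told apart. A set of 8 libraries had an rRNA gene share of at most 0.263% of counts, against at least 0.409% in the other 30 libraries: replicates 4, 5 and 6 of WT ZT12, replicate 7 of KO ZT6 and all 4 of KO ZT18. At ZT18 this feature and the genotype cannot be told apart. Arntl was counted over the whole gene, and its CPM, 19.2 ± 1.5 (SD, n = 4) in KO ZT18 and 25.6 ± 4.19 (SD, n = 4) in WT ZT18, does not check the deletion, which concerns part of the gene. Its log2 difference over all times was -0.17 with a standard error (SE) of 0.06 (adjusted p = 0.183).

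Measured per length, the desaturase genes Scd2, Fads2 and Fads1 had the highest levels of the 10. Scd2, the main stearoyl-CoA desaturase of brain, stood at 345 ± 43.8 CPM per kilobase (kb) over the 38 libraries (mean ± SD), a level above that of 99.6% of the 15825 protein-coding genes tested. Fads2, which starts the conversion of essential fatty acids into longer polyunsaturated ones, followed at 141 ± 14.99 CPM per kb, and Fads1, which acts later in that chain, at 80.8 ± 6.01 CPM per kb. Scd2 and Scd1 lie on chromosome 19 at chr19:44293676-44306864 (plus strand) and chr19:44394451-44407709 (minus), and Fads2 and Fads1 at chr19:10064164-10101503 (minus) and chr19:10182888-10196870 (plus), in GRCm38 as the deposited table gives them. Both FADS values depend on the gene length in the deposited table, which is 1508 bases for Fads2 and 3456 for Fads1. With the merged exon lengths of the GENCODE M21 annotation, 3295 and 4812 bases, they become 64.7 and 58.0 CPM per kb, close to Fasn at 55.0.

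The genes that make the chain itself differed widely. They all lie on chromosome 11, Acaca at chr11:84129672-84401651 (plus), Acly at chr11:100476353-100528000 (minus) and Fasn at chr11:120805846-120824547 (minus). Fasn stood at 55.0 ± 7.30, Acly at 50.3 ± 3.76 and Acaca at 7.12 ± 0.899 CPM per kb. Among the elongases, Elovl5, which acts on polyunsaturated chains, reached 47.4 ± 4.16, Elovl6, which lengthens palmitate to stearate, 22.8 ± 2.61, and Elovl1, which makes very long chains, 19.6 ± 3.19 CPM per kb. The elongase genes are at chr9:77917364-77984519 (Elovl5), chr3:129532355-129638495 (Elovl6) and chr4:118428093-118432953 (Elovl1), all on the plus strand. Scd1, another stearoyl-CoA desaturase, was at 17.5 ± 4.06 CPM per kb, and the level of Scd2 per length was 20.2 ± 3.21 times that of Scd1 within a library. With the table's lengths, 5 of the 9 neighbouring pairs in this order kept it in all 38 libraries. Fasn was above Acly in 32, Acly above Elovl5 in 28, Elovl6 above Elovl1 in 28 and Elovl1 above Scd1 in 25, so these neighbours overlapped. With the GENCODE lengths Fads2 was above Fads1 in 34 libraries and Fads1 above Fasn in 24.

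**Figure D1:**
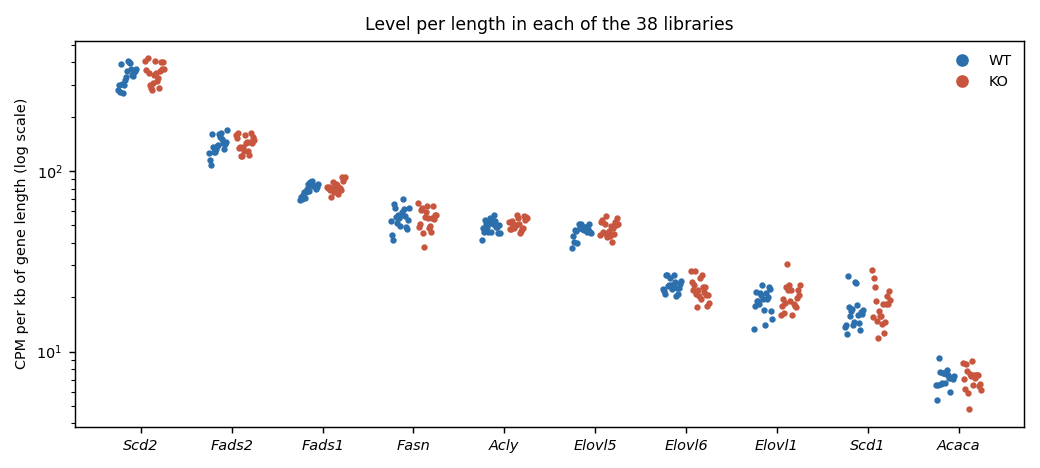
Level of each gene per length, in CPM per kb of the gene length in the deposited table, on a log axis; each point is 1 of 38 libraries, WT in blue and KO in red. Scd2 sits highest at a mean of 345 and Acaca lowest at 7.12, and the WT and KO points of each gene cover similar ranges.

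Reads of some members could have been shared with near-identical genes, and how such reads were counted is not given in the sources used here. Of the 50-base stretches of Acaca transcripts, 30.4% also occurred in another gene, nearly all in the processed pseudogene Gm5182, which itself had 304 to 697 counts per library. The share was 4.56% for Scd1, 3.98% for Elovl6 and 3.97% for Scd2, and at most 0.152% for the other 6 genes. The counts of Acaca are therefore the least certain of the set. Elovl1 also overlaps Cdc20 on the opposite strand by 53 bases, and Cdc20 had 880 to 2484 counts. Whether strand was used in counting is likewise not given in the sources used here, and without it the reads of this overlap cannot be told apart.

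The first question was whether loss of BMAL1 function in OPCs changed these transcripts whatever the hour. None of the 10 genes passed the test over all times, where 21 of the 22798 genes (0.0921%) did, at an adjusted p under 0.05 (edgeR, quasi-likelihood, Benjamini-Hochberg over all genes tested). The log2 differences of KO over WT ran from -0.07 for Elovl6 to 0.13 for Scd1, with 8 above 0 and a median of 0.05, beside a median of -0.02 for all genes. An unadjusted p under 0.05 was reached by 1 of the 10 genes, and by 3444 genes (15.1%) overall. DESeq2 and limma-voom also called none of the 10 genes, here and at each of the 4 times.

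For the 3 enzymes of chain synthesis the interval of the difference was narrow. The log2 difference of Fasn was -0.005 with a 95% interval from -0.13 to 0.12, that of Acaca 0.004 with an interval from -0.12 to 0.13, and that of Acly 0.05 with an interval from -0.02 to 0.12. The elongases Elovl6, Elovl5 and Elovl1 had log2 differences of -0.07, 0.07 and 0.04. Fads1 had the smallest p of the set, with a log2 difference of 0.07 (SE 0.03, unadjusted p = 0.0239, adjusted p = 0.248) and an interval from 0.01 to 0.14. For Scd1, whose level varied most between libraries (coefficient of variation 23.2%, against 7.44% for Fads1), the interval ran from -0.05 to 0.31.

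**Figure D2:**
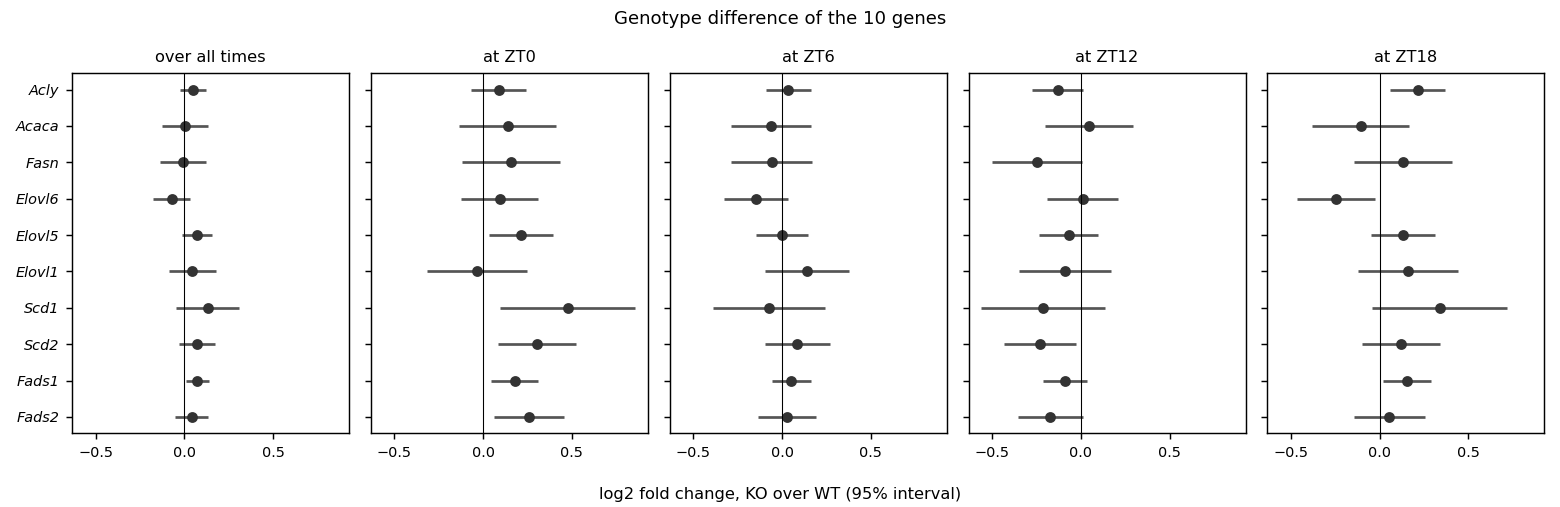
Log2 fold change of KO over WT for each gene, over all times and at each zeitgeber time; points are estimates and bars 95% intervals from the model over all 38 libraries. Most estimates lie above 0 at ZT0 (9 of 10) and ZT18 (8 of 10) and below 0 at ZT12 (8 of 10), and no gene passed the test after adjustment.

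At ZT0, lights on, 9 of the 10 log2 differences were above 0 and their median was 0.17, beside -0.05 for all genes. None of the 10 genes passed the test, where 65 genes (0.285%) did. Unadjusted p-values under 0.05 were found for 5 of them, Scd1, Scd2, Fads1, Fads2 and Elovl5, and for 18.4% of all genes, with a smallest adjusted p of 0.121. All 4 desaturases are among these 5 genes. Of the 65 genes called, 42 were higher and 23 lower in KO, and with RLE scaling 38 were higher and 54 lower.

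Scd1 had 65.8, 67.5, 60.8 and 127 CPM in the 4 WT libraries of ZT0 and 137, 75.0, 124 and 111 CPM in the 4 KO libraries. WT replicates 1 to 3 lay below every KO library and WT replicate 4 lay above all but KO replicate 1, so the groups overlapped through that library. The log2 difference was 0.48 (SE 0.19, adjusted p = 0.159). Scd2 had 1541, 1633, 1496 and 2139 CPM in WT and 2220.2, 1988, 2298 and 1908 CPM in KO. Here too WT replicates 1 to 3 lay below every KO library, while WT replicate 4 lay within the KO range, below KO replicates 1 and 3. Its log2 difference was 0.31 (SE 0.11, adjusted p = 0.121). How many of all genes had WT replicates 1 to 3 below every KO library was not counted.

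Fads2 had 191, 173, 163 and 241 CPM in WT and 238, 231, 245 and 203 CPM in KO, again with WT replicate 4 among the KO values (log2 difference 0.26, SE 0.10, adjusted p = 0.146). Fads1 was the only member whose ZT0 groups did not overlap: the WT libraries had 238, 249, 243 and 254 CPM and the KO libraries 281, 279, 281 and 271 CPM. Its log2 difference was 0.18 (SE 0.07, adjusted p = 0.140). Of all genes tested, 2.6% had every KO library above every WT library at this time, and 2.64% every KO library below. Elovl5 had 131, 155, 143 and 166 CPM in WT and 157, 184, 189.6 and 161 CPM in KO, with overlapping groups and a log2 difference of 0.22 (SE 0.09, adjusted p = 0.183).

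The synthesis enzymes differed less at this time, with log2 differences of 0.16 for Fasn, 0.14 for Acaca and 0.09 for Acly. Fasn had 576, 483, 451 and 722 CPM in WT and 726, 535, 560.4 and 665 CPM in KO, so here too WT replicate 4 lay beside the highest KO library.

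WT ZT0 replicate 4 set how this comparison came out. Without it, Scd1, Scd2 and Fads2 passed the test at ZT0 in edgeR's quasi-likelihood test, with log2 differences of 0.78, 0.43 and 0.38 and adjusted p-values of 0.00527, 0.00965 and 0.0092, and the number of genes called over the whole table rose from 65 to 2208. Over the 45 alternatives run, the adjusted p ran from 0.00527 to 0.452 for Scd1, from 0.00965 to 0.418 for Scd2 and from 0.0092 to 0.443 for Fads2. The mean z-score of the 10 genes, each standardised over the 38 libraries, was 0.85 in that library and between -1.40 and -1.10 in the other 3 WT libraries of ZT0. Its list of sterol synthesis genes was also the highest of the 4, at a mean log2 CPM of 6.68 against 5.88 to 6.05. Its markers of microglia and macrophages, at 8.02, lay within the range of the other 3, from 7.96 to 9.17, and its OPC markers, at 9.65, lay above theirs, from 9.29 to 9.53. The 17 markers of microglia and macrophages all had log2 differences below 0 at ZT0, with a median of -0.36, and none passed the test. Their mean log2 CPM per library ran from 7.96 to 9.17 in WT and from 7.46 to 8.48 in KO. Of the 15 OPC markers 13 had log2 differences above 0, with a median of 0.17, and their mean log2 CPM ran from 9.29 to 9.65 in WT and from 9.56 to 9.77 in KO. The part of these cells in the differences at ZT0 was not tested.

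**Figure D3:**
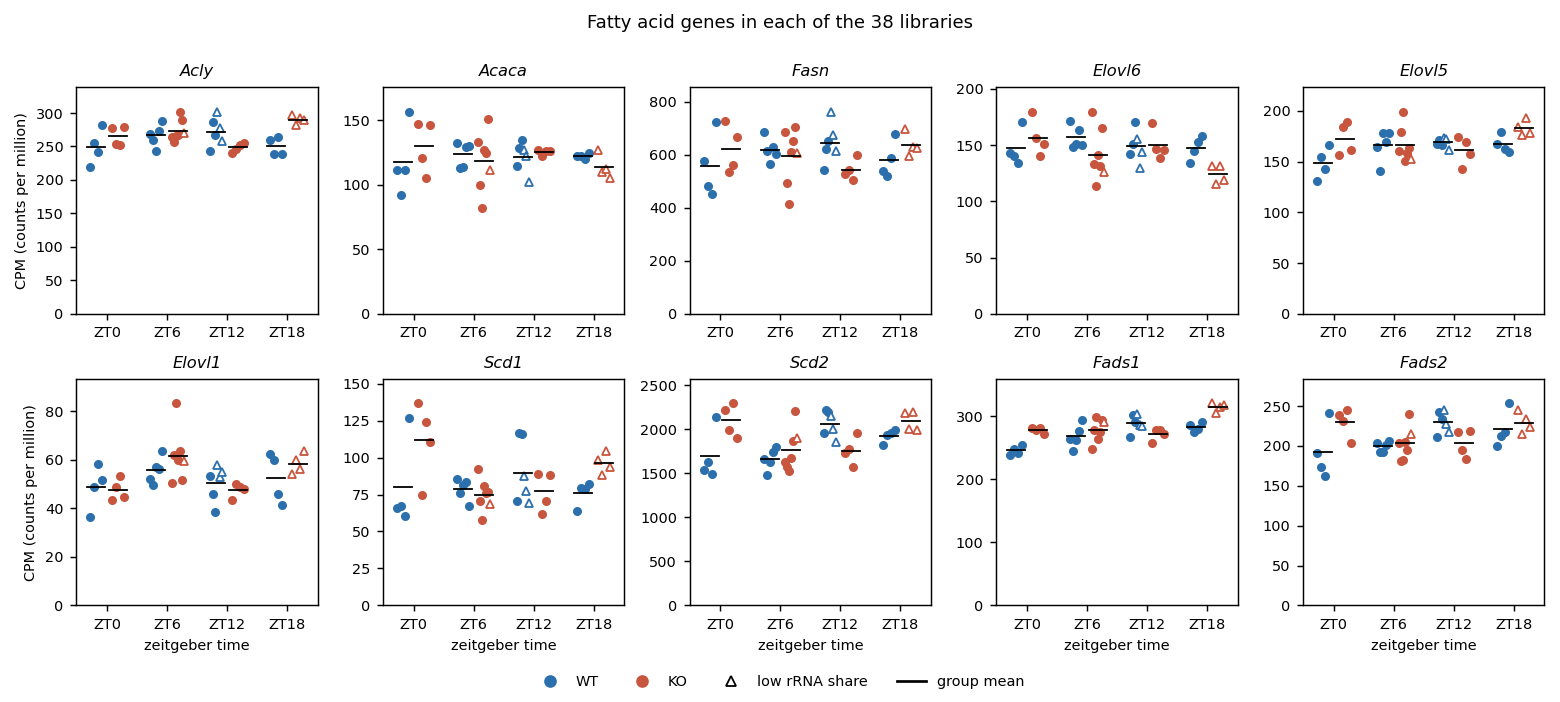
CPM of each gene in every library by zeitgeber time, WT in blue and KO in red; open triangles mark the 8 libraries with a low rRNA share and black bars the group means. At ZT0 the WT libraries of Scd1, Scd2 and Fads2 form 3 low points and 1 high point, replicate 4, which for Scd1 stands at 127 CPM.

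At ZT6, in mid-light, no member passed the test, where 3 genes (0.0132%) did, and none had an unadjusted p under 0.05, beside 4.39% of all genes. The log2 differences were split 5 above and 5 below 0 with a median of 0.01, beside 0.002 for all genes. They ran from -0.15 for Elovl6 (95% interval -0.33 to 0.03) to 0.14 for Elovl1 (-0.09 to 0.38). In no member were all KO libraries above all WT libraries, or all below, as was so for 0.136% and 0.14% of all genes. Scd2 had 1664, 1478, 1631, 1747 and 1800.3 CPM in WT, and in the 7 KO libraries a lowest value of 1525, a median of 1671 and a highest of 2206 CPM. The KO libraries of Elovl1 ran from 50.4 to 83.4 CPM with a median of 60.1, and those of WT from 49.8 to 63.7 CPM. All 17 markers of microglia and macrophages had log2 differences above 0 at this time, with a median of 0.23, and none passed the test.

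At ZT12, lights off, the direction was the opposite of that at ZT0 for most members. The log2 differences were below 0 for 8 of the 10 genes, with a median of -0.11 beside -0.01 for all genes. Again no member passed the test, whereas 1139 genes (5%) did, 841 of them lower in KO. Only Scd2 reached an unadjusted p under 0.05, as did 20.1% of all genes. The groups overlapped in all 10 members, while 2.12% of all genes had every KO library above WT and 3.15% every KO library below.

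Scd2 ran from 1859.7 to 2219.9 CPM in the 6 WT libraries, with a median of 2080.4, and stood at 1729, 1779.5, 1567 and 1959 CPM in KO. The groups overlapped in KO replicate 4 only, and the log2 difference was -0.23 (SE 0.10, adjusted p = 0.173). Fasn ran from 542 to 762 CPM in WT with a median of 637, and stood at 527, 542, 503 and 599 CPM in KO, with overlapping groups (log2 difference -0.25, SE 0.13, adjusted p = 0.263). Fads2 had a log2 difference of -0.17, Scd1 of -0.21 and Acly of -0.13, with adjusted p-values from 0.28 to 0.525. Acaca and Elovl6 were the members above 0, at 0.05 and 0.01.

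Of the 6 WT libraries of this time, 3 had a low rRNA share. Fasn averaged 683 CPM in these 3 and 605 in the other 3, and Scd2 2007 and 2122. Without the low-rRNA libraries the log2 difference was -0.27 for Scd2 and -0.16 for Fasn, and the number of genes called over the table fell from 1139 to 1. No member passed with or without them. Of the 15 OPC markers 10 had log2 differences below 0 at ZT12, with a median of -0.27, and 2, Cspg4 and C1ql1, passed the test. Their mean log2 CPM per library ran from 9.49 to 9.80 in WT and from 9.19 to 9.51 in KO. Markers of differentiating oligodendrocytes were below 0 in 11 of 13, with a median of -0.29 and Myrf past the test. Endothelial and mural markers were below 0 in 9 of 12 (median -0.36) and neuron markers in 8 of 14 (median -0.22), and none of these passed. The medians of red blood cell, astrocyte, and microglia and macrophage markers were nearer 0, at -0.09, -0.05 and -0.03, and none of these passed either. The part of these cells in the differences at ZT12 was not tested.

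At ZT18, in mid-dark, 8 of the 10 log2 differences were above 0 again, with a median of 0.13 beside -0.004 for all genes. None of the 10 genes passed the test, where 488 genes (2.14%) did. Of these, 318 were higher and 170 lower in KO, and with RLE scaling 237 were higher and 234 lower. Unadjusted p-values under 0.05 were found for 3 of the 10, Acly, Elovl6 and Fads1, and for 18.2% of all genes. In 4 genes every KO library was above every WT library: Acly, Scd1, Scd2 and Fads1. That was so for 10.4% of all genes tested. In Elovl6 every KO library was below every WT library, as in 8.18% of all genes.

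Acly had 260.0, 239, 264 and 238 CPM in WT and 297, 282, 293 and 289.6 CPM in KO, a log2 difference of 0.21 (SE 0.08, adjusted p = 0.122). Scd1 had 64.0, 79.7, 78.5 and 81.9 CPM in WT and 98.1, 88.5, 104 and 93.5 CPM in KO, a log2 difference of 0.34 (SE 0.19, adjusted p = 0.343). Fads1 had 285, 276, 281 and 292 CPM in WT and 321, 305, 315 and 318 CPM in KO, a log2 difference of 0.15 (SE 0.07, adjusted p = 0.206). In these 3 genes the KO libraries formed a compact group above WT. For Scd2 the separation was minimal: its highest WT library had 1996.8 CPM and its lowest KO library 1996.9 CPM.

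Elovl6 went the other way. It had 134, 145, 153 and 158 CPM in WT and 132, 115, 132 and 119 CPM in KO, a log2 difference of -0.24 (SE 0.11, adjusted p = 0.216). Fasn, by contrast, had 539, 519.7, 588 and 679 CPM in WT and 696, 593, 627 and 626 CPM in KO, with overlapping groups and a log2 difference of 0.13 (adjusted p = 0.665). Among the elongases, Elovl1 and Elovl5 had log2 differences of 0.16 and 0.13.

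Because all 4 KO libraries of ZT18 had a low rRNA share, this comparison could not be repeated without them. With membership in the low-rRNA set as a covariate no member passed, and the genes called over the table fell from 488 to 2. Over the 44 alternatives the adjusted p ran from 0.0831 to 0.855 for Acly, 0.116 to 0.970 for Elovl6 and 0.144 to 0.916 for Fads1. Markers of other cells differed at ZT18 as well. The 13 markers of differentiating oligodendrocytes tested had a median log2 difference of 0.57 at ZT18, with 12 above 0 and 4, Mbp, Mag, Cnp and Cldn11, past the test, and their mean log2 CPM was 5.05 in KO against 4.23 in WT, with ranges of 4.87 to 5.28 and 4.10 to 4.36. The median was 0.57 for 14 neuron markers, 0.63 for 12 endothelial and mural markers, 0.38 for 17 markers of microglia and macrophages and 0.86 for 8 red blood cell markers. Mean log2 CPM per library ran from 8.78 to 9.26 in KO and 7.68 to 9.10 in WT for microglia and macrophages, and from 5.36 to 5.62 and 4.28 to 5.48 for neurons. OPC and astrocyte markers had medians of -0.09 and -0.02. The part of these cells in the differences at ZT18 was not tested.

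The differences between times were then tested directly. No member passed the test for a genotype difference that depends on time, where 2096 genes (9.19%) did, although 5 of the 10 had an unadjusted p under 0.05, as did 24.7% of all genes, and the smallest adjusted p was 0.065. DESeq2 and limma-voom each called 1 member, Scd2. Without WT ZT0 replicate 4, Scd1, Scd2 and Fads2 passed, with adjusted p-values of 0.00781, 0.00897 and 0.0144. In that fit the number of genes called over the whole table rose from 2096 to 3175. Scd2 also passed when replicate 3 or 6 of KO ZT6 or replicate 4 of KO ZT12 was left out, at adjusted p-values of 0.0433, 0.0431 and 0.0462. The adjusted p of Scd2 over the 45 alternatives ran from 0.00897 to 0.243. No member passed without the low-rRNA libraries, and so without KO ZT18, or with membership in that set as a covariate. Far fewer genes passed over the whole table in these fits. Every KO library of ZT18 is in that set, so its part in this test and that of the genotype cannot be told apart there.

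Within WT, no member passed the test for time of day, where 1120 genes (4.91%) did, although 3 had an unadjusted p under 0.05, as did 17.5% of all genes, and DESeq2 and limma-voom each called Scd2 and Fads1. Fads1 came closest, from 246 ± 7.01 CPM at ZT0 (SD, n = 4) to 268 ± 18.2 at ZT6 (n = 5), 289 ± 13.7 at ZT12 (n = 6) and 283 ± 6.78 at ZT18 (n = 4), a ratio of 1.18 between the highest and the lowest mean (adjusted p = 0.0616). No WT library of ZT12 or ZT18 was as low as the highest of ZT0. How many of all genes were separated in this way was not counted. Scd2 was highest at ZT12 with 2064 ± 145 CPM (n = 6) and lowest at ZT6 with 1664 ± 124 CPM (n = 5), a ratio of 1.24 (adjusted p = 0.0888). Without WT ZT0 replicate 4, Scd2 (adjusted p = 0.00976) and Fads2 (adjusted p = 0.0122) passed, and the genes called over the whole table rose from 1120 to 1449. Fads1 passed when any of WT ZT6 replicate 5, WT ZT12 replicate 1, KO ZT6 replicate 1 or KO ZT6 replicate 3 was left out, at 0.0386 to 0.0455. Over the alternatives run, the adjusted p ran from 0.0141 to 0.351 for Fads1, from 0.00976 to 0.292 for Scd2 and from 0.0122 to 0.58 for Fads2. Among cell type markers, 8 of 12 of astrocytes, 6 of 8 of red blood cells and 3 of 14 of neurons passed the same test in WT. None of the markers of OPCs, differentiating oligodendrocytes, microglia and macrophages, or endothelial and mural cells did. The part of these cells in the time differences within WT was not tested.

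Within KO, 3 of the 10 genes passed the test for time of day, beside 5001 of all genes (21.9%): Scd1, Elovl1 and Fads1. Scd1 was highest at ZT0 with 112 ± 26.7 CPM (n = 4) and lowest at ZT6 with 74.7 ± 10.9 CPM (n = 7), a ratio of 1.5 (adjusted p = 0.0278), with 77.3 ± 13.4 at ZT12 and 96.1 ± 6.66 at ZT18 (n = 4 each). Elovl1 had another order, with its highest mean at ZT6, 61.6 ± 10.9 CPM (n = 7), and its lowest at ZT12, 47.6 ± 2.95 CPM (n = 4), a ratio of 1.29 (adjusted p = 0.0377). Fads1 was highest at ZT18 with 315 ± 6.97 CPM and lowest at ZT12 with 272 ± 9.78 CPM (n = 4 each), a ratio of 1.16 (adjusted p = 0.0456). At ZT6, Scd1 had its lowest mean and Elovl1 its highest.

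These 3 calls depended on single libraries to different degrees. The call of Scd1 was lost in 3 of 38 fits with 1 library omitted, those without KO ZT0 replicates 1, 3 or 4. That of Elovl1 was lost in 11, without KO ZT0 replicates 1, 2 or 4, KO ZT6 replicates 2, 3 or 5, KO ZT12 replicates 1, 3 or 4, or KO ZT18 replicates 2 or 4. That of Fads1 was lost in 25: any library of WT ZT18, KO ZT0 or KO ZT18, WT ZT0 replicates 2 or 3, WT ZT6 replicates 1, 3 or 4, WT ZT12 replicates 5 or 6, KO ZT6 replicates 2, 4 or 5, or KO ZT12 replicates 1, 2 or 4. Without the 8 libraries of low rRNA share, and so without KO ZT18, none of the 3 passed (adjusted p = 0.0611 for Scd1, 0.0699 for Elovl1 and 0.952 for Fads1). With membership in that set of 8 as a covariate, Scd1 alone passed. Fads1 was also lost with RLE scaling (adjusted p = 0.110) and with no filter (adjusted p = 0.213). Over the alternatives, the adjusted p ran from 0.00803 to 0.113 for Scd1, from 0.0191 to 0.0891 for Elovl1 and from 0.0265 to 0.952 for Fads1. A call in KO with none in WT does not show that the genotypes differ in their time course, and the direct test above was passed by none of the 3. Markers of cell types varied with time in KO as well: 7 of 15 OPC markers, 11 of 17 of microglia and macrophages, 12 of 14 of neurons, 9 of 12 of astrocytes and 7 of 13 of differentiating oligodendrocytes passed the same test. So did 7 of 12 endothelial and mural markers and 8 of 8 red blood cell markers. The part of these cells in the 3 calls was not tested.

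**Figure D4:**
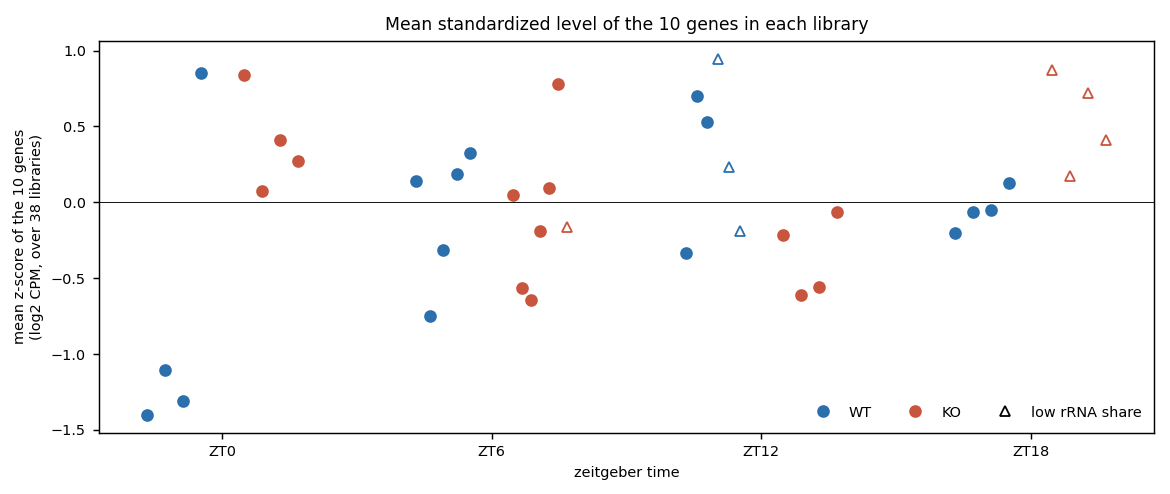
Mean of the z-scores of the 10 genes (log2 CPM standardised over the 38 libraries) in each library by zeitgeber time, WT in blue and KO in red, open triangles for libraries with a low rRNA share. WT ZT0 holds both the 3 lowest libraries, from -1.40 to -1.10, and a library at 0.85, while the KO libraries of ZT0 lie between 0.07 and 0.84.

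The members did not form 1 block across libraries. Over the 45 pairs and 38 libraries, Pearson's r of log2 CPM had a median of 0.37 and ran from -0.61 to 0.90. The closest pair was Scd2 and Fads2 (r = 0.90, and 0.84 within groups), followed by Acaca and Elovl6 (0.70) and Fasn and Acaca (0.70). Elovl1 and Elovl6, both elongases of saturated chains, had the most negative r, -0.61, and -0.63 within groups. Elovl1 also had negative values with Fasn (-0.32), Acaca (-0.45), Scd1 (-0.37) and Fads2 (-0.28). All these coefficients share library depth and cell makeup and are given as a description. Fads1 and Fads2, which lie 81.4 kb apart on chromosome 19, had r = 0.56, and Scd1 and Scd2, 87.6 kb apart on the same chromosome, 0.67.

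Outside the set, the 8 genes most like the mean z-score of the 10 members over the 38 libraries included Dhcr7 (0.88), Mvb12b (0.85), Ctnnd2 (0.84), Fam234b (0.84), Fam168a (0.83), Clip3 (0.82) and Nmnat2 (0.82). Dhcr7 encodes a reductase of cholesterol synthesis. The likeness within groups was of the same size, 0.75 to 0.86. The 8 genes were picked for their likeness in these same libraries, so the values within groups are not a separate check.

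The RefSeq promoter table for GRCm38.p6 held entries for 7 of the members (8 promoters). Scd1, Scd2 and Fads1 were not matched. The only entry for Acaca, chr11:84195188-84195437, lies inside the gene as the deposited table places it (chr11:84129672-84401651, plus strand). The bases before the Acaca start at 84129672 were therefore not searched. The 250 bases upstream of the start were searched on both strands for 4 motifs: the clock E-box CACGTG, the SREBP-type element TCACNCCAC, the CCAAT box CCAAT and the GC box GGGCGG. The E-box was found in 1 of the 7 genes, Elovl5, at 161 to 156 bases before the start, and in 6.02% of the 32851 promoters of the table. The SREBP-type element was found in none of the 7 and in 1.05% of all promoters. The CCAAT box was found for Fasn, Elovl1 and Elovl5 and in 33.8% of all, and the GC box for Acly, Elovl1 and Fads2 and in 32.7% of all. A match of letters is a description and does not mark a bound site. Of these promoters 3 are printed 5′ to 3′ on the gene's strand with matched letters in capitals: Fasn and Fads2, whose levels varied together over the libraries (r = 0.69), and Elovl5, whose level did not follow Fasn (r = -0.09) and which carries the E-box. The Fasn stretch is chr11:120824548-120824797 on the minus strand, that of Fads2 chr19:10101504-10101753 on the minus strand and that of Elovl5 chr9:77917115-77917364 on the plus strand.
Fasn: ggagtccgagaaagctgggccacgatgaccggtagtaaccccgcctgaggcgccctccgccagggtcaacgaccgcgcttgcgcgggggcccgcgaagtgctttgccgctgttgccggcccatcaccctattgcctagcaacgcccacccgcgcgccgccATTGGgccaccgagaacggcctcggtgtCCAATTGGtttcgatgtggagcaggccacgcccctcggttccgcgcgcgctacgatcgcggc
Fads2: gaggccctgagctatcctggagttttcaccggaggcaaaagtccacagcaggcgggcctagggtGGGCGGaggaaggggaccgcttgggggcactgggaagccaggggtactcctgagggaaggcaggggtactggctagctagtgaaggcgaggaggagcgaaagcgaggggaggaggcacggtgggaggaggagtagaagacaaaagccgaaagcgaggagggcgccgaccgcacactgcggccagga
Elovl5: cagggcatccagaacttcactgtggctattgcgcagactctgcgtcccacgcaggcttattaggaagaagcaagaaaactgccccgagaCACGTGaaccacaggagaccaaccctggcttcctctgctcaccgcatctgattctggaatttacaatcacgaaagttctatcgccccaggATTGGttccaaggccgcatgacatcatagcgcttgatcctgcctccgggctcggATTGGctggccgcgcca
In Fasn the capitals mark 3 CCAAT matches, of which the last 2, on opposite strands, overlap. Fads2 holds 1 GC box, and Elovl5 holds the E-box and 2 CCAAT matches on the opposite strand.

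The regulators of the pathway were examined beside its enzymes. Of 20 genes of SREBP processing and lipogenic regulation, 4 were lower in KO at ZT12 and passed the test: Srebf2, the sterol-responsive SREBP (log2 difference -0.33, SE 0.09), Scap, its escort protein (-0.26, SE 0.08), Nr1h2, a liver X receptor (-0.61, SE 0.13), and Rxrb, a partner receptor (-0.48, SE 0.12). Of all genes 5% passed at ZT12, 841 of the 1139 lower in KO. The list's median was -0.26, with 14 of 20 below 0, and the medians of OPC, differentiating oligodendrocyte and endothelial and mural markers were -0.27, -0.29 and -0.36 at the same time. Those of neuron, red blood cell, astrocyte, and microglia and macrophage markers were -0.22, -0.09, -0.05 and -0.03. The part of these cells in the 4 calls was not tested. No gene of the list passed at the other times or over all times. None of the 4 passed without the low-rRNA libraries or with membership in the low-rRNA set as a covariate. The call of Scap was also lost with RLE scaling (adjusted p = 0.0587) and in 22 of the 38 fits with 1 library omitted, against 3 for Srebf2, 2 for Rxrb and 0 for Nr1h2.

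Among other genes of the pathway, Slc25a1, the mitochondrial citrate carrier, fell at ZT12 by 0.53 on the log2 scale (SE 0.13), from 56.3 ± 8.19 CPM in WT (n = 6) to 39.1 ± 7.78 CPM in KO (n = 4), the only one of 16 synthesis genes to pass at that time. Tecr, the reductase of the elongation cycle, fell by 0.39 (SE 0.09), from 270.0 ± 21.5 to 206 ± 26.4 CPM, the only one of 17 elongation and desaturation genes. Pcyt2, of phosphatidylethanolamine synthesis, fell by 0.64 (SE 0.15), as 1 of 14 glycerolipid genes, and Mvd, of the mevalonate pathway, fell by 0.74 (SE 0.19), as 1 of 18 sterol synthesis genes. These counts of 1 in a list are near the share of all genes called at ZT12, 5%. None of these 4 passed without the low-rRNA libraries or with the covariate.

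Changes in the other direction were fewer. Fabp7, the brain fatty acid binding protein, rose in KO at ZT0 by a log2 difference of 0.72 (SE 0.16, adjusted p = 0.045), from 563 ± 199 to 929 ± 134 CPM (n = 4 each), the only one of 10 uptake and binding genes to pass in any comparison of genotype. No library of ZT0 had a low rRNA share. The call was lost when the low-rRNA libraries of the other times were left out (adjusted p = 0.117), and in 19 of the 38 fits with 1 library omitted. It was kept with membership in the low-rRNA set as a covariate (adjusted p = 0.0394), with RLE scaling, with DESeq2 and with limma-voom. Acot7, an acyl-CoA thioesterase, rose at ZT18, where all KO libraries had a low rRNA share, by 0.72 (SE 0.17, adjusted p = 0.0224), as 1 of 16 synthesis genes beside 2.14% of all genes. The call of Acot7 was lost with membership in the low-rRNA set as a covariate (adjusted p = 0.341) and in 6 of those 38 fits. Dbi, which binds acyl-CoA, rose over all times by 0.31 (SE 0.07, adjusted p = 0.0401). Its call was lost when the low-rRNA libraries were left out (adjusted p = 0.540), with the covariate (0.0959), with RLE scaling (0.0623), with limma-voom (0.0526) and in 23 of the 38 fits. Of 19 genes of fatty acid oxidation none passed in a comparison of genotype, and 2 had an unadjusted p under 0.05 over all times. The smallest p-values over all times in that list were those of Hadha (log2 difference 0.09, SE 0.04, adjusted p = 0.244), Acaa2 (0.21, SE 0.10, adjusted p = 0.294) and Acadl (0.12, SE 0.07, adjusted p = 0.394).

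Sterol synthesis genes showed the same order of medians over the day as the 10 members. The 17 other elongation and desaturation genes had it too, with 0.171 at ZT0, 0.052 at ZT18, 0.048 at ZT6 and -0.058 at ZT12. All 18 sterol synthesis genes had log2 differences above 0 at ZT0, with a median of 0.45, and at ZT18, with a median of 0.26. At ZT12 17 of 18 were below 0 with a median of -0.16. Of the sterol synthesis genes only Mvd at ZT12 passed the test, and the members and these genes were measured in the same libraries. For the 10 members the medians were 0.17, 0.13 and -0.11 at ZT0, ZT18 and ZT12. These signs were not particular to lipid genes. At the same times neuron markers had 0.20, 0.57 and -0.22, endothelial and mural markers 0.23, 0.63 and -0.36, and red blood cell markers 0.40, 0.86 and -0.09. The OPC, differentiating oligodendrocyte, astrocyte, and microglia and macrophage markers did not share all these signs. The part of these cells was not tested.

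**Figure D5:**
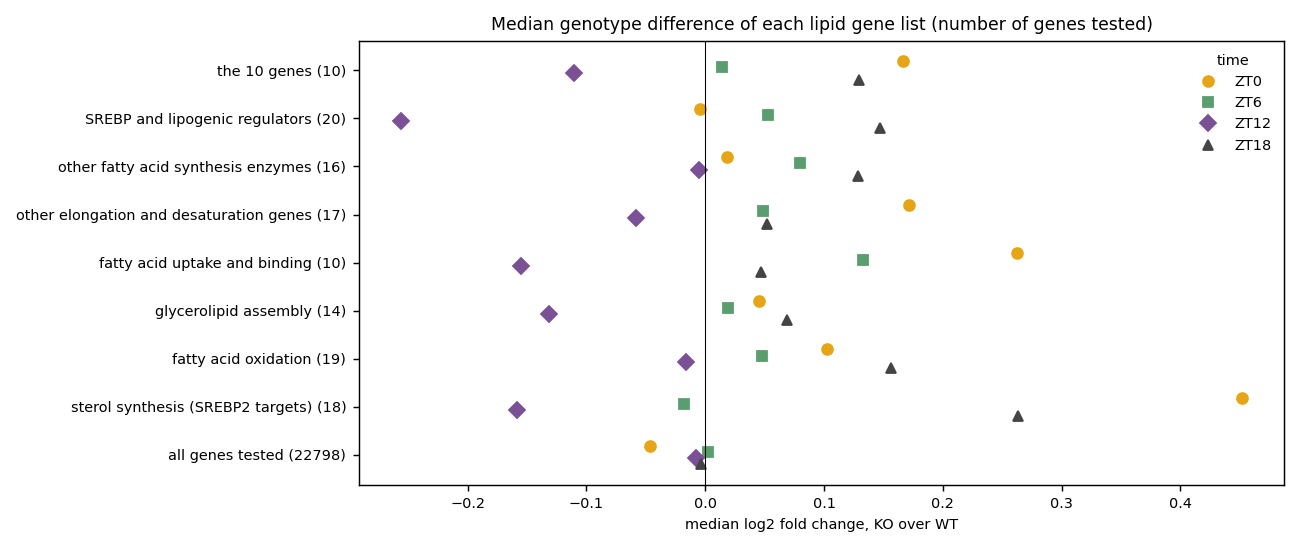
Median log2 fold change of KO over WT for the 10 genes, 7 further lipid gene lists and all genes tested, at each zeitgeber time; the number of genes tested stands beside each list. The median of the 10 genes is 0.17 at ZT0 and -0.11 at ZT12, and that of sterol synthesis 0.45 and -0.16.

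Time of day was tested in these lists as well. Together with the 10 members they held 124 genes tested. In WT 8 genes of the 7 lists passed, among them Srebf1, Insig1, Thrsp, Fabp5, Gpam, Lpin2 and Pcyt1a (adjusted p from 0.00813 to 0.0407). Insig1, which holds SREBP in the endoplasmic reticulum, was highest at ZT6 with 280.4 ± 36.8 CPM (n = 5) and lowest at ZT18 with 144 ± 16.8 CPM (n = 4). None of the 10 members passed in WT. In KO 43 genes passed (adjusted p from 0.000994 to 0.0466), of which 18 passed without the low-rRNA libraries, and so without KO ZT18. They were 9 regulators (Srebf1, Srebf2, Scap, Mlxipl, Nr1h2, Rxra, Rxrb, Mid1ip1, Thrsp), 5 synthesis genes (Slc25a1, Acsl3, Acsl6, Acot7, Dbi), 4 elongation and desaturation genes (Tecr, Fads3, Cyb5b, Cyb5r3), 5 uptake and binding genes (among them Fabp3, Fabp5, Fabp7, Slc27a1), 5 glycerolipid genes (Gpam, Agpat1, Agpat3, Lpin2, Pcyt2), 4 oxidation genes (Acaa2, Etfa, Etfb, Ppard) and 11 sterol synthesis genes (among them Hmgcs1, Mvk, Pmvk, Mvd, Fdft1, Sqle, Dhcr7, Msmo1, Nsdhl, Ebp). For all genes tested the shares called were 4.91% in WT and 21.9% in KO. Cell type markers also varied with time in both genotypes, and the part of those cells in these calls was not tested.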

How the data were processed

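RNA-seq of immunopanned mouse OPCs was analysed in 38 libraries of 8 groups, assigned from the samples' titles. The authors deposited raw counts per gene for all libraries. The submitters' processing notes name fastp, the aligner HISAT2 (2.0.5), the counter featureCounts (1.5.0-p3) and the build GRCm38. Annotation release, strand setting and the treatment of multiply mapped reads: not given in the sources used here. The members and gene lists were chosen with earlier results of these data known.

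Counts were filtered by group (filterByExpr), scaled by TMM and tested with edgeR 4.0.16 (quasi-likelihood test) in R 4.3.3, in a model with 8 group means over all 38 libraries, so that all groups share an estimate of the spread. Adjustment was by Benjamini-Hochberg over 22798 genes, with calls at 0.05. The contrasts were KO minus WT at each time, their mean, their equality over time, and the equality of the 4 times in WT and in KO. The genes tested held 99.9% of counts. The fit was tested on simulated data. Alternatives were RLE scaling, no filter, DESeq2 1.42.0, voom of limma 3.58.1, the replicate number as a block, the libraries with an rRNA share under 0.33% left out or as a covariate, and each library left out.

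Genes named are the 10 members, Arntl, each gene of the 7 lipid lists that passed in a comparison or otherwise the 3 with the smallest p over all times, and the 8 genes most like the members' mean z-score, with unnamed gene models and pseudogenes skipped. Some genes that the rule would name are not reported here, while the counts include them. The labels number the replicates but do not say that equal numbers share a litter or day. No pair of libraries within a group agreed within sampling noise (76 pairs, smallest chi-square per degree of freedom 13.0 over 12966 genes). Promoters were taken from RefSeq for GRCm38.p6 and searched over 250 bases.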

Additional observations from a re-analysis of the deposited data

Results flagged for a closer look

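Within groups, 3 of the 80 sets formed by 10 genes and 8 groups held a library apart from the others by Dixon's criterion, where chance flags about 1 in 20. Scd1 in WT ZT0 replicate 4 was at 126.8 CPM, above the other 3 libraries at 60.8 to 67.5 CPM. Elovl1 in KO ZT6 replicate 3 was at 83.4 CPM, above 50.4 to 63.7 CPM in the other 6. Acaca in KO ZT12 replicate 2 was at 122.2 CPM, under the others at 126 to 127 CPM, a small gap in a group with a narrow range.

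Of the 124 lipid genes tested, members included, 17 had a genotype difference that depended on time (edgeR quasi-likelihood test, Benjamini-Hochberg adjusted p), beside 2096 of all 22798 genes (9.19%), and none was a member. Among them were the regulators Srebf2 (0.0139), Insig1 (0.0279), Mlxipl (0.0424), Nr1h2 (0.0241) and Rxrb (0.00612), the synthesis genes Slc25a1 (0.00257) and Acot7 (0.0378), and the elongation and desaturation genes Tecr (0.00203) and Cyb5b (0.0269). Others were the uptake gene Fabp3 (0.0273), the glycerolipid genes Agpat3 (0.0332) and Pcyt2 (0.0268), and the sterol synthesis genes Pmvk (0.0106), Mvd (0.00249), Dhcr7 (0.0393) and Nsdhl (0.0266). None of the 17 passed without the low-rRNA libraries or with membership in the low-rRNA set as a covariate. Of the 17, 11 lost the call in at least 1 fit that left out a library.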

How the results depend on the processing

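None of the 10 genes passed in the 5 comparisons of genotype under RLE scaling, no filter, DESeq2, limma-voom, the block, or either treatment of the low-rRNA libraries, and leaving out a library changed this only for WT ZT0 replicate 4 at ZT0 (members called 0 to 3). Leaving out a library gave 0 to 3 members for the genotype difference by time, 0 to 2 for time in WT and 0 to 4 for time in KO. DESeq2 called 1, 2 and 5 members in these 3 tests and limma-voom 1 and 2 in the first and second. For time in KO, 0 members passed without the low-rRNA libraries and 1 with the covariate.

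Counts over all genes moved more. DESeq2 called 244 over all times, 1018 at ZT0, 1211 at ZT18, 3166 for the difference by time and 1778 for time in WT, and limma-voom 746 at ZT18. Without the low-rRNA libraries 5 were called over all times, 4 at ZT0, 1 at ZT6, 1 at ZT12, 0 for the difference by time, 724 for time in WT and 2050 for time in KO, with fewer libraries and without KO ZT18. No value exists for ZT18. With the covariate there were 8, 115 at ZT0, 78 at ZT12, 2 at ZT18, 43 for the difference by time and 2656 for time in KO. Leaving out a library gave 10 to 633 over all times, 1 to 2208 at ZT0, 2 to 5 at ZT6, 259 to 1357 at ZT12, 44 to 761 at ZT18, 1049 to 3175 for the difference by time, 661 to 1449 for time in WT and 3632 to 5301 for time in KO. The cause of these shifts was not tested.

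The replicate numbers did not pair the libraries: 48 of 116 pairs with equal numbers had a correlation over 0.1 (median 0.055), and 8 of 38 libraries correlated best with their own number. The replicate block gave 467 calls at ZT0, 726 at ZT12 and 996 at ZT18. For time in KO it ended the calls of Scd1 (adjusted p = 0.0717) and Elovl1 (adjusted p = 0.0657) and added Scd2 (adjusted p = 0.0257, from 0.0139 to 0.154 over the alternatives). It also ended the calls of Scap at ZT12 (adjusted p = 0.139) and Dbi over all times (adjusted p = 0.0560), of Nr1h2 (0.0588) and Agpat3 (0.0649) for the difference by time, and of Fdft1 (0.0621), Msmo1 (0.0891) and Ebp (0.0514) for time in KO. It turned the log2 difference of Elovl5 at ZT6 to 0.0285, of Fads2 at ZT6 to -0.00959 and of Elovl6 at ZT12 to -0.00508.

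Other differences near 0 changed sign as well. Acaca over all times was -0.00808 with RLE scaling, -9.17e-05 with no filter and -0.00807 with DESeq2. Without the low-rRNA libraries Elovl5 at ZT6 was 0.0191, Elovl6 at ZT12 -0.0429, Acaca at ZT12 -0.00631 and Elovl1 at ZT12 0.0520, and with the covariate the first 3 were 0.00624, -0.0572 and -0.00517. Leaving out a library moved Acaca from -0.0241 to 0.0432 over all times, -0.128 to 0.0129 at ZT6 and -0.000215 to 0.0771 at ZT12. It moved Fasn from -0.0290 to 0.0295 over all times and -0.103 to 0.0131 at ZT6. The ranges were -0.159 to 0.0584 for Elovl1 at ZT0, -0.0541 to 0.0261 for Elovl5 and -0.0164 to 0.0530 for Fads2 at ZT6, and -0.0463 to 0.0542 for Elovl6 at ZT12. Every member had at least 859 counts in each library.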
